A study of Rattus norvegicus with 10 samples.

Results

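The mesothelin locus was followed in sorted rat β-cells through 5 genes: Msln, Mslnl, Rpusd1, Chtf18 and Gng13. They are Msln and the genes beside it, chosen on the contrast of Scrt1 knockdown with control, with their changes already known. All 5 of 5 were found among the 23918 genes of the deposited table. In the RefSeq annotation (assembly GRCr8) they stand in a row on chromosome 10, in the order Gng13, Chtf18, Rpusd1, Mslnl and Msln, with 0 other protein-coding genes between them. β-cells, which make insulin in the pancreatic islet, came from adult Sprague-Dawley rats and were sorted by their autofluorescence. Scrt1 was silenced with 4 pooled siRNAs (siScrt1), control cells received a negative control siRNA (siCtrl), and RNA was taken 48 h later. There were 5 libraries of each kind, named siCtrl replicates 1 to 5 and siScrt1 replicates A to E. Both groups had gone through islet dissociation, sorting and lipofection. Untransfected cells were not analysed here, so siCtrl is the only background.

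Mesothelin, the product of Msln, is a glycoprotein held on the cell surface by a GPI anchor, a lipid tail added in the endoplasmic reticulum. It is made as a precursor that the protease furin cuts into a released part, megakaryocyte potentiating factor, and the anchored part. It is best known from mesothelial cells, which line the body cavities, and from mesothelioma, ovarian and pancreatic tumours, where it serves as a target for antibodies, and it binds the mucin Muc16. Mslnl encodes a relative of mesothelin. Rpusd1 encodes a protein with the domain of enzymes that convert uridine to pseudouridine in RNA. Chtf18 belongs to a clamp loader that places the replication clamp Pcna on DNA and takes part in sister chromatid cohesion. Gng13 encodes a γ subunit of heterotrimeric G proteins known from taste cells. Scrt1 is a zinc finger repressor of the Snail family, which binds E-box sequences with the core CAGGTG.

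The libraries held 11901342 to 17444034 recovered reads, that is, the deposited scaled counts divided by what 1 read was worth in each library. Scrt1 itself fell from 14.1 ± 2.61 to 3.58 ± 1.63 CPM, reads scaled to a common library total (SD, n = 5 each), with no overlap between the groups (exact two-sided permutation p = 0.00794, the smallest that 5 against 5 can give). Summed β-cell markers, led by Ins1 and Ins2, reached 332464 to 614718 TPM in siCtrl and 386235 to 539214 in siScrt1. Of these 8 markers 0 were called by limma at an adjusted p under 0.05. An unadjusted p under 0.05 was found for 3, where 11.1% of all tested genes had one, and all 3 had positive log2 differences, of 0.37 for Mafa, 0.35 for Pdx1 and 0.17 for Nkx6-1. TPM, the share of transcripts in a library, relate reads to transcript length and so allow genes to be compared, whereas CPM are used below to compare libraries.

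Msln was among the most abundant transcripts of these cells. Its level in the siCtrl libraries 1 to 5 was 479, 429, 543, 337 and 390 TPM. In the siScrt1 libraries A to E it was 731, 964, 821, 698 and 832 TPM. Every siScrt1 library thus stood above every siCtrl library, with siScrt1 replicate B the highest and siCtrl replicate 4 the lowest. The mean was 435 ± 79.6 TPM with siCtrl and 809 ± 104 TPM with siScrt1 (± SD over 5 libraries each), which placed Msln at rank 88 and rank 40 of 23918 genes by mean TPM. For scale, Mafa, a transcription factor that activates the insulin genes, had a mean of 427 TPM in siCtrl, Pdx1, the homeobox regulator of β-cell identity, 148 TPM, and the glucose transporter gene Slc2a2 915 TPM.

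**Figure D1:**
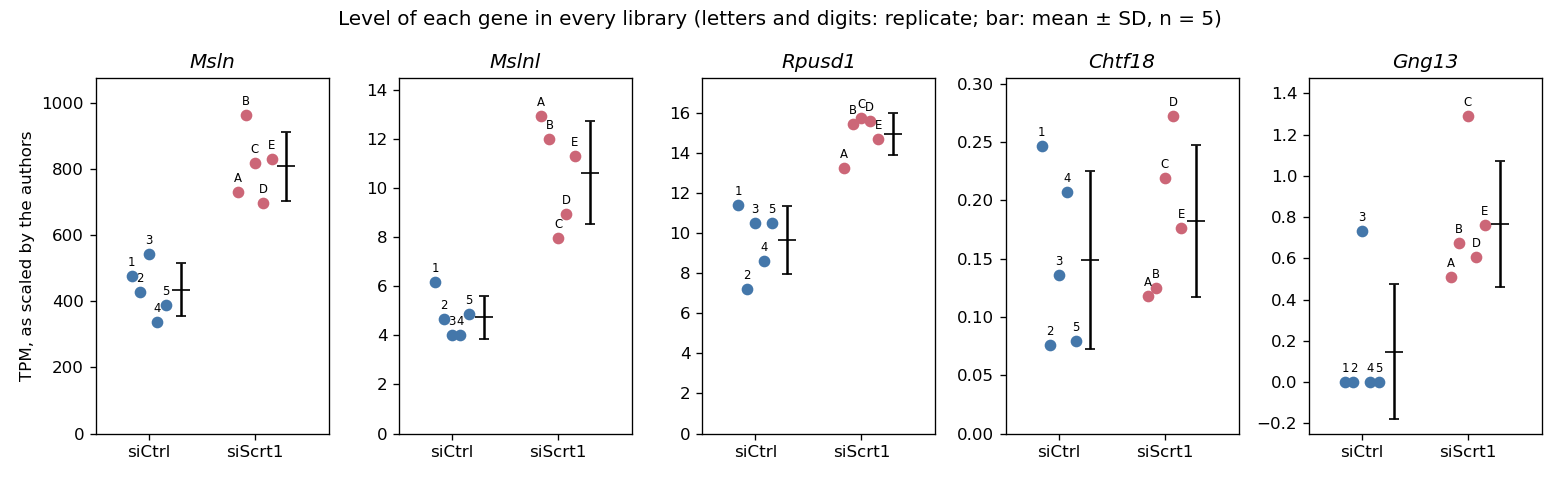
Level of each of the 5 genes in every library (y axis: TPM as scaled by the authors, a separate axis for each gene; points: libraries by replicate name; bars: mean ± SD, n = 5). The siScrt1 points of Msln, Mslnl and Rpusd1 all lie above the siCtrl points, whereas those of Chtf18 and Gng13 overlap.

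In reads, Msln was counted 13825, 13372, 18967, 11560 and 11720 times in the siCtrl libraries and 18425, 36657, 24424, 24823 and 27962 times in siScrt1. It took 0.0782 to 0.115% of all reads in siCtrl and 0.155 to 0.210% in siScrt1. Mean CPM were 979 ± 143 for siCtrl and 1777 ± 212 for siScrt1 (n = 5 each, ± SD), a ratio of 1.82, and the lowest siScrt1 library was 1.34 times the highest siCtrl library. The fitted log2 fold change was 0.90 (SE 0.13), given as a description because the gene was chosen on this contrast.

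Mslnl was far less abundant per length but had the largest log2 fold change of the 3 genes with enough reads for the fit by gene. Its level was 6.16, 4.65, 4.03, 4.00 and 4.86 TPM in siCtrl libraries 1 to 5. The siScrt1 libraries A to E gave 12.9, 12.0, 7.95, 8.93 and 11.3 TPM. The groups did not overlap, and siScrt1 replicate C came nearest to siCtrl replicate 1. These values rested on 129 to 167 reads in siCtrl and 222 to 428 reads in siScrt1. The mean CPM were 10.0 ± 1.74 and 21.8 ± 3.93 (SD, n = 5 each), a ratio of 2.18 and a fitted log2 fold change of 1.15 (SE 0.15).

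Rpusd1, the next gene in the row, was present at 11.4, 7.22, 10.5, 8.63 and 10.5 TPM in siCtrl and at 13.3, 15.5, 15.8, 15.6 and 14.7 TPM in siScrt1. The groups did not overlap here either, although siScrt1 replicate A lay close to siCtrl replicate 1. Its reads numbered 189 to 309 in siCtrl and 281 to 494 in siScrt1. The mean went from 18.2 ± 2.55 to 27.7 ± 2.63 CPM (± SD over 5 libraries each), a ratio of 1.52 and a fitted log2 fold change of 0.64 (SE 0.12). This was the smallest change of the 3 genes with enough reads for the fit by gene. The spread of Rpusd1 between libraries, as a coefficient of variation of CPM, was 14.0% in siCtrl and 9.49% in siScrt1, against 17.3% and 18.0% for Mslnl and 14.6% and 11.9% for Msln.

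Promoter windows of RefSeq (GRCr8, 250 bases before to 50 after each gene's start) are shown for the 3 of 5 members found there. The windows of Rpusd1 and Chtf18 share a stretch, and that of Gng13 lies apart from both. Scrt1 binds the E-box CAGGTG. In the windows of Rpusd1 and Gng13 capitals mark that motif. In the window of Chtf18 they mark the 186 bases that it shares, on the opposite strand, with the window of Rpusd1.
Rpusd1 promoter window (chr10:15255626-15255925, + strand): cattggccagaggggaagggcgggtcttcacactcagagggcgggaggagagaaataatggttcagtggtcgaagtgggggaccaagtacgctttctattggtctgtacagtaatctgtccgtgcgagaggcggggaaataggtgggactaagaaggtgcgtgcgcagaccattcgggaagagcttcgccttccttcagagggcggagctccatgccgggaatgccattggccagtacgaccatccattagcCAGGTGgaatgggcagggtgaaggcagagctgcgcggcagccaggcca
Chtf18 promoter window (chr10:15255512-15255811, - strand): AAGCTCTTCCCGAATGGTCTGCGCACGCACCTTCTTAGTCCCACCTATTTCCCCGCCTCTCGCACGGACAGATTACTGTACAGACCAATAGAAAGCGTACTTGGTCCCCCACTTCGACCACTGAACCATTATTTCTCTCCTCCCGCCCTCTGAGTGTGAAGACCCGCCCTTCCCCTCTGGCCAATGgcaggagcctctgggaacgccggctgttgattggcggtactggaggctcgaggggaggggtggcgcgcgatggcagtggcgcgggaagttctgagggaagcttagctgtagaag
Gng13 promoter window (chr10:15245448-15245747, + strand): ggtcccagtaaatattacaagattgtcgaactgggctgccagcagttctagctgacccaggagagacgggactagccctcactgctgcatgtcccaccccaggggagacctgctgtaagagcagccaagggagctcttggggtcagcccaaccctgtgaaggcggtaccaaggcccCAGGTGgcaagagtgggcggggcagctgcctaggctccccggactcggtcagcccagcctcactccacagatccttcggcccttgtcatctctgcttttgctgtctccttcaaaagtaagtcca
The Rpusd1 window held 1 CAGGTG after 252 bases, just past the gene's start and outside the shared stretch, and the Gng13 window held 1 after 176 bases. The Chtf18 window held 0 on either strand. Of 33469 rat promoter windows of this length, 18.8% held CAGGTG on at least one strand. The longer form CAACAGGTG, which contains the first motif, was in 0.203% of windows and in 0 of these 3. A match is a description of the letters and not of binding.

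Chtf18 shares its start region with Rpusd1 but was scarcely read. The siCtrl libraries held 12, 4, 8, 12 and 4 reads and the siScrt1 libraries 5, 8, 11, 16.3 and 10. The groups overlapped over most of their range, with siScrt1 replicate D the highest and siCtrl replicates 2 and 5 the lowest. Mean levels were 0.149 ± 0.0763 and 0.182 ± 0.0651 TPM (SD, n = 5 each). Summed over libraries, the ratio of CPM was 1.201, with a 95% exact interval of 0.776 to 1.87 that covers counting error only. A difference was thus not detectable at this depth, and the interval still holds the ratio of Rpusd1.

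Gng13 was near the limit of detection. Reads numbered 0, 0, 2, 0 and 0 in siCtrl and 1, 2, 3, 1.69 and 2 in siScrt1, so that siCtrl replicate 3 lay within the siScrt1 values while the other siCtrl libraries held none. Summed, this was 2 against 9.69 reads. With the latter rounded to 10, the ratio was 4.80, with a 95% exact interval of 1.02 to 45.1 for counting error only. The lower end lies close to 1 and depends on that fraction of a read rounded up, so no difference is read from it. As the transcript in the table has 354 bases, a single read in siScrt1 replicate A already amounted to 0.508 TPM, and the mean levels of 0.147 ± 0.328 and 0.768 ± 0.306 TPM (SD, n = 5 each) come from these few reads. The values not whole in siScrt1 replicate D belong together: 16.3 reads of Chtf18 and 1.69 of Gng13 add up to 18. The annotated spans of these neighbours overlap and run towards each other, and whether the library kit kept the strand was not stated, so a few reads of the end of Chtf18 and of Gng13 cannot be told apart.

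Each of the 5 genes had 1 transcript in the table, of 2183 bases for Msln (ENSRNOT00000026395.3, gene ENSRNOG00000019445), 2061 for Mslnl (ENSRNOT00000060286.3, ENSRNOG00000039339), 1866 for Rpusd1 (ENSRNOT00000015206.6, ENSRNOG00000023639), 3542 for Chtf18 (ENSRNOT00000026139.6, ENSRNOG00000019174) and 354 for Gng13 (ENSRNOT00000030273.4, ENSRNOG00000039350). Of their 46 values above 0, 44 were whole reads within 0.01. All values of Msln, Mslnl and Rpusd1 were whole, so the deposited counts held no read divided between Msln and its relative Mslnl, or between either of them and another transcript.

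By mean TPM the order in siCtrl was Msln, Rpusd1, Mslnl, Chtf18 and Gng13. The lowest Rpusd1 library stood above the highest Mslnl library in both groups, at 7.22 against 6.16 TPM in siCtrl and 13.3 against 12.9 TPM in siScrt1. Chtf18 and Gng13 did not differ beyond their spread in siCtrl. In siScrt1 Gng13 came before Chtf18, with every library above the highest Chtf18 library, at 1 to 3 reads each. Msln exceeded Mslnl 93.8 ± 23.6 times in siCtrl and 78.4 ± 16.8 times in siScrt1 (SD of TPM ratios, n = 5 each), ranges that overlapped. The ratio of Mslnl to Rpusd1 was 0.498 ± 0.0987 in siCtrl and 0.719 ± 0.186 in siScrt1, also with overlap.

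In the limma fit over 12941 genes, 136 genes (1.05%) had an adjusted p under 0.05, 48 of them (0.371%) higher in siScrt1. With the library number of the deposited table as a replicate block, the count was 259. Of the 5 genes, 3 passed the filter on low counts, and Msln, Mslnl and Rpusd1 were all called higher, a count from which nothing is read, as they were chosen on this contrast. Their log2 fold changes ranked 91, 42 and 220 of the 12941 in descending order. The call of Rpusd1 was lost when siCtrl replicate 4 or siScrt1 replicate B, C, D or E was left out, with its log2 fold change at 0.54 to 0.70 when any 1 library was left out. In the same fits the log2 fold change was 0.81 to 0.99 for Msln and 1.07 to 1.25 for Mslnl. Groups without overlap in CPM were seen for 2.96% of the tested genes, and in 121 genes (0.935%) siScrt1 was the higher, Msln, Mslnl and Rpusd1 among them.

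**Figure D2:**
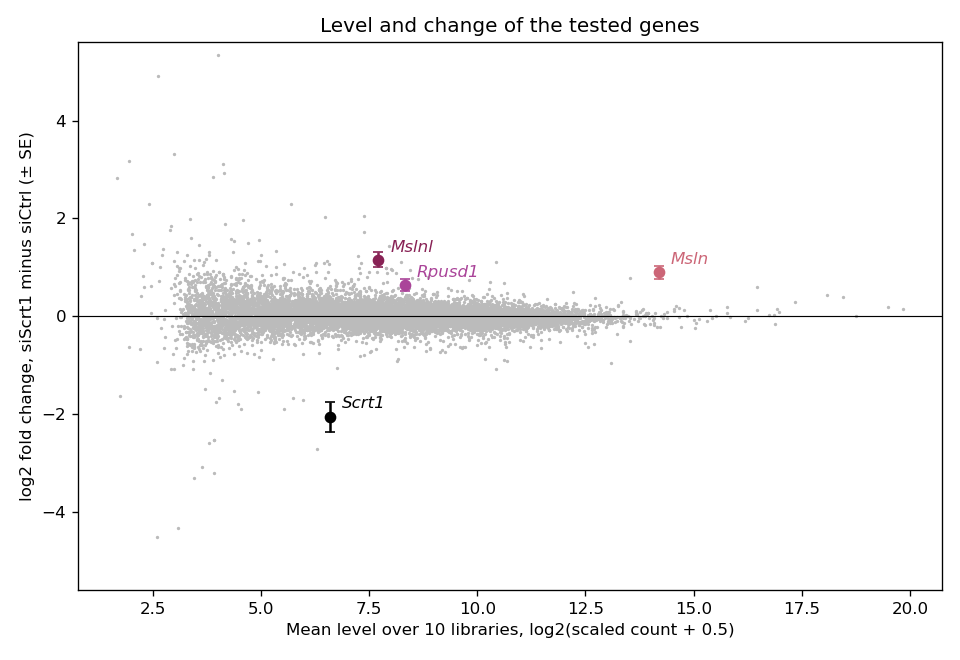
Level and change of the 12941 tested genes (x axis: mean log2 of scaled count plus 0.5 over the 10 libraries; y axis: log2 fold change of siScrt1 over siCtrl, with SE for the named genes; grey: other genes). Msln lies far to the right at a log2 fold change of 0.90, Mslnl and Rpusd1 at a middle level at 1.15 and 0.64, and Scrt1 below 0 at -2.06.

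In the plot of level against change Msln stands far to the right of Mslnl and Rpusd1, at a mean log2 scaled count of 14.20 against 7.72 and 8.33. The deposited table numbers the libraries of both groups from 1 to 5. Over all tested genes, deviations of same-numbered libraries correlated weakly, at 0.132 to 0.356. Those of other pairs correlated at -0.182 to 0.166, a range that overlaps. The 5 same-numbered pairs were therefore also compared one by one. As the groups did not overlap for these 3 genes, siScrt1 is the higher in any pairing, and only the ratios are described. They were 2.01 to 2.34 for Mslnl, the narrowest range of the 3 genes, 1.50 to 2.10 for Msln and 1.14 to 1.94 for Rpusd1. With the number as a block, the SE of the log2 fold change was 0.087 for Mslnl, 0.096 for Msln and 0.12 for Rpusd1.

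Within their groups no close correlation of the 3 genes was seen, although 10 libraries are too few to exclude a shared variation. The deviations of log2 CPM from the group mean correlated at r = 0.061 (rho = 0.20) between Msln and Mslnl, at 0.18 (rho = 0.21) between Msln and Rpusd1 and at -0.11 (rho = -0.055) between Mslnl and Rpusd1, over the same 10 libraries and so the same depths. Libraries 3 and C had the lowest Mslnl of their groups, at -0.30 and -0.42 log2 units from the mean, while their Msln stood at 0.25 and 0.0043. Libraries 1 and A had the highest Mslnl, at 0.33 and 0.26, and stood at 0.090 and -0.19 for Msln.

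**Figure D3:**
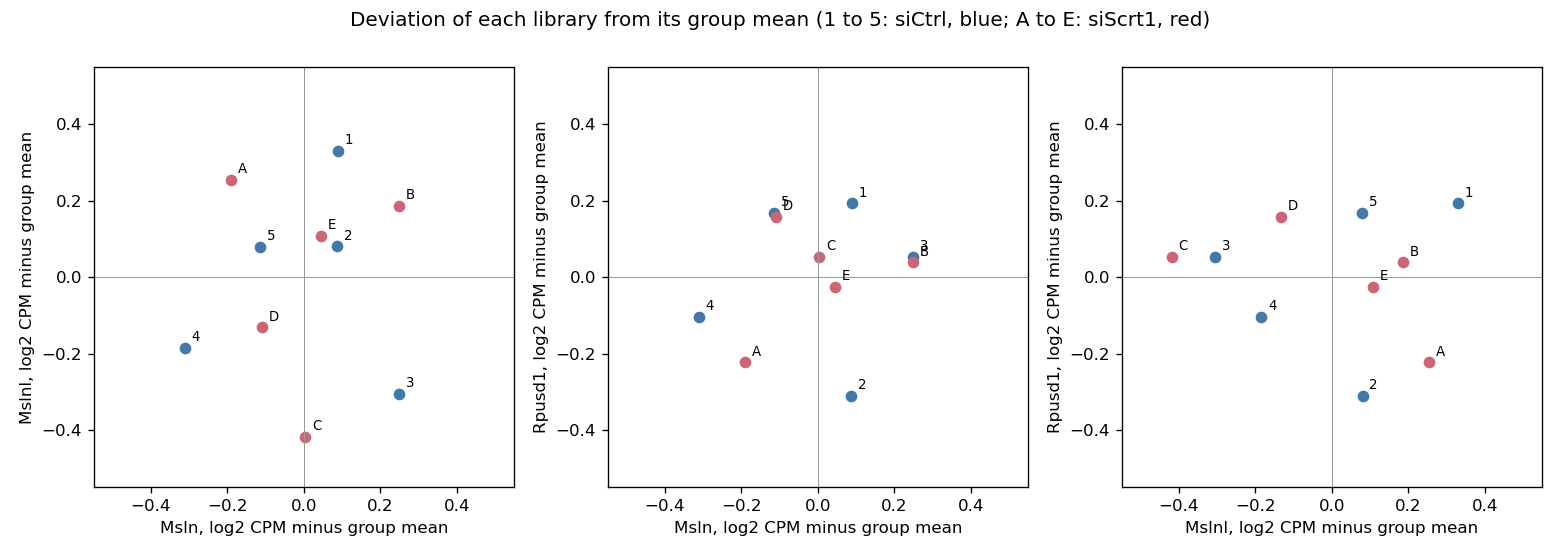
Deviation of each library from its group mean for the 3 pairs of genes (both axes: log2 CPM minus the group mean; blue, siCtrl replicates 1 to 5; red, siScrt1 replicates A to E). The points form no line in any panel, with r of 0.061, 0.18 and -0.11.

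Among 10123 genes whose mean reached 5 CPM, the 5 whose deviations over the 10 libraries were most like those of Msln were Synj2 (r = 0.946), Gpx3 (0.892), Pbxip1 (0.881), AABR07035539.1 (0.870) and Padi2 (0.864). Gpx3 encodes a secreted glutathione peroxidase and Synj2 a phosphoinositide phosphatase. For Mslnl they were Ambp (r = 0.937), Adm (0.928), AABR07001099.2 (0.923), Mfsd4b (0.903) and Hinfp (0.899), of which Adm encodes the peptide hormone adrenomedullin. By rank, rho was 0.75 to 0.85 for the 5 genes of Msln and 0.84 to 0.95 for those of Mslnl. These values are a description over 10 libraries, which share depths and, by number, part of their deviations. As they are the highest of 10123, they would be high by selection alone, and whether they exceed that was not tested.

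The genes around the locus were read next, 20 protein-coding genes on each side. Of these 40 neighbours 39 were in the table and 27 were tested. By limma 0 were called at an adjusted p under 0.05, and 7 had an unadjusted p under 0.05, against 1435 (11.1%) of all tested genes. Their median log2 fold change was 0.097, with 19 above 0, beside a median of 0.0035 over all tested genes. On the Msln side the median of the 17 tested was 0.12 and 6 had an unadjusted p under 0.05. On the Gng13 side the median of the 10 tested was 0.045, with 1 such gene.

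Ciao3, next to Msln and needed for cytosolic iron-sulphur cluster assembly, had 15.01 ± 2.29 CPM with siCtrl and 18.9 ± 1.60 CPM with siScrt1 (± SD over 5 libraries each). Its fitted log2 difference was 0.37 (SE 0.11) with an adjusted p of 0.197 by limma. The next tested genes on that side had values of 0.42 for Haghl, 0.092 for Antkmt, 0.23 for Fbxl16 and -0.0039 for Wdr24, a subunit of the GATOR2 complex. On the far side, beyond Gng13, they were -0.076 for Lmf1, a maturation factor of lipases, 0.22 for the somatostatin receptor gene Sstr5, 0.20 for the calcium channel gene Cacna1h and 0.032 for Baiap3. None of these genes had an adjusted p under 0.05 by limma in the main test. Farther out, Rhot2, a mitochondrial GTPase gene named here after its values were seen, had 32.8 ± 3.68 CPM with siCtrl and 43.1 ± 1.78 CPM with siScrt1 (± SD over 5 libraries each). The fitted log2 difference was 0.44 (SE 0.098) with an adjusted p of 0.0580 by limma. With the replicate block its adjusted p was 0.0330, which made it the 1 neighbour called there, and over all alternatives it ran from 0.0260 without siCtrl replicate 3 to 0.145 without siScrt1 replicate C. Rhbdl1 had the highest log2 difference of the neighbours, 0.61 (SE 0.21), with an adjusted p of 0.264 by limma, and was also called without siCtrl replicate 3.

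**Figure D4:**
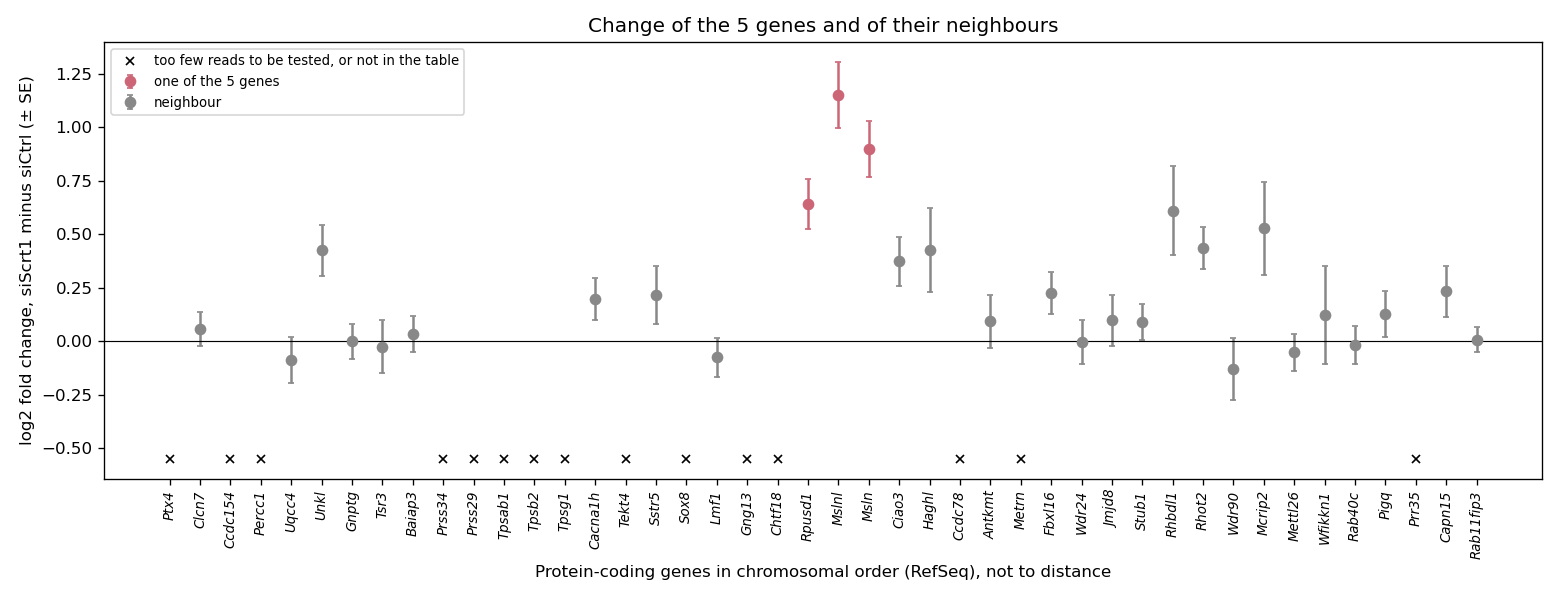
Log2 fold change of siScrt1 over siCtrl with its SE for the 5 genes (red) and 20 neighbours on each side (grey), in chromosomal order and not to distance, with 1 neighbour not drawn; crosses stand for genes with too few reads or without a row. The tested neighbours lie between -0.13 and 0.61, beside 0.64, 1.15 and 0.90 for Rpusd1, Mslnl and Msln, which were chosen with these values known.

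Genes of the pathways in which the 5 genes take part were described next. Of the relatives and processing partners of mesothelin 7 of 10 were tested, among them furin and the complex that attaches GPI anchors, and 0 were called, with a median log2 fold change of 0.095. Pigk, the catalytic subunit of that complex and the most abundant of them over all 10 libraries, had 34.7 TPM in siCtrl and 34.9 TPM in siScrt1 on average, and Furin 26.9 and 30.1 TPM. The mesothelin relatives Otoa and Strc had means under 0.1 TPM in both groups. None of these 7 reached an unadjusted p under 0.05 in the limma fit.

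Among pseudouridine synthases, to which Rpusd1 is related by its domain, 11 of 12 were tested and 0 called, with 1 at an unadjusted p under 0.05 and a median of -0.0019. Dkc1, the synthase of small nucleolar ribonucleoproteins, was the most abundant at 24.7 and 27.9 TPM. Of the clamp loaders and replication partners of Chtf18 13 of 14 were tested and 0 called, with 2 at an unadjusted p under 0.05 and a median of -0.011. Pcna, the clamp itself, had 28.0 and 27.3 TPM, and Chtf8, a partner of Chtf18 in the loader, had 26.8 and 27.8 TPM, far above the 0.149 and 0.182 TPM of Chtf18. Of the cohesin genes 9 of 9 were tested and 0 called, with a median of -0.13 and 1 log2 fold change above 0. An unadjusted p under 0.05 in limma was found for 2, both lower in siScrt1, where 11.1% of all tested genes had one. Rad21, the most abundant and the 1 above 0, had 53.4 and 54.3 TPM.

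For the G protein β and γ subunits 10 of 16 were tested, with a median of -0.038. An unadjusted p under 0.05 was found for 2 γ subunits, both lower in siScrt1. Of these 1 was called, where 0.68% of all tested genes were called lower. This gene, Gng4, fell by 0.52 on the log2 scale (SE 0.10, limma adjusted p = 0.0341), from 103 to 71.8 TPM on average. Its adjusted p was above 0.05, and the call lost, in 8 of the 10 fits that left out 1 library, and reached 0.110 without siScrt1 replicate D, with a range of 0.00565 to 0.110 over all alternatives. Gnb1, the most abundant of these genes, had 111 and 108 TPM. Of the partners of Gng13 in taste transduction 4 of 8 were tested and 0 called, with 0 at an unadjusted p under 0.05. Gnat3 and Plcb2, gustducin and the phospholipase of taste cells, had means under 0.2 TPM, whereas the channel gene Trpm5 had 14.1 and 14.97 TPM and Itpr3, the inositol trisphosphate receptor, 13.6 and 14.0 TPM. Gng13 itself, at 0.147 and 0.768 TPM, was thus far below Gng4 and Gnb1 in the same cells.

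Since mesothelin is a marker of mesothelial cells, other markers of these and of further cell types were set beside it. Of 8 mesothelial markers 7 were in the table. Wt1 and Calb2 were at 0 in every library, 6 of the 7 had a mean under 1 TPM, and only Pdpn (2.59 and 2.70 TPM), which other cells also express, was above. Their sum was 2.26 to 3.29 TPM in siCtrl and 2.13 to 3.24 TPM in siScrt1, while Msln stood at 337 to 543 and 698 to 964 TPM. Duct markers, with 6 of 6 in the table and 0 at 0 in every library, summed to 109 to 161 and 132 to 159 TPM. Krt7 made up nearly all of this, at 134 and 144 TPM, whereas Krt19, a defining marker of duct cells, had 1.67 TPM in each group.

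**Figure D5:**
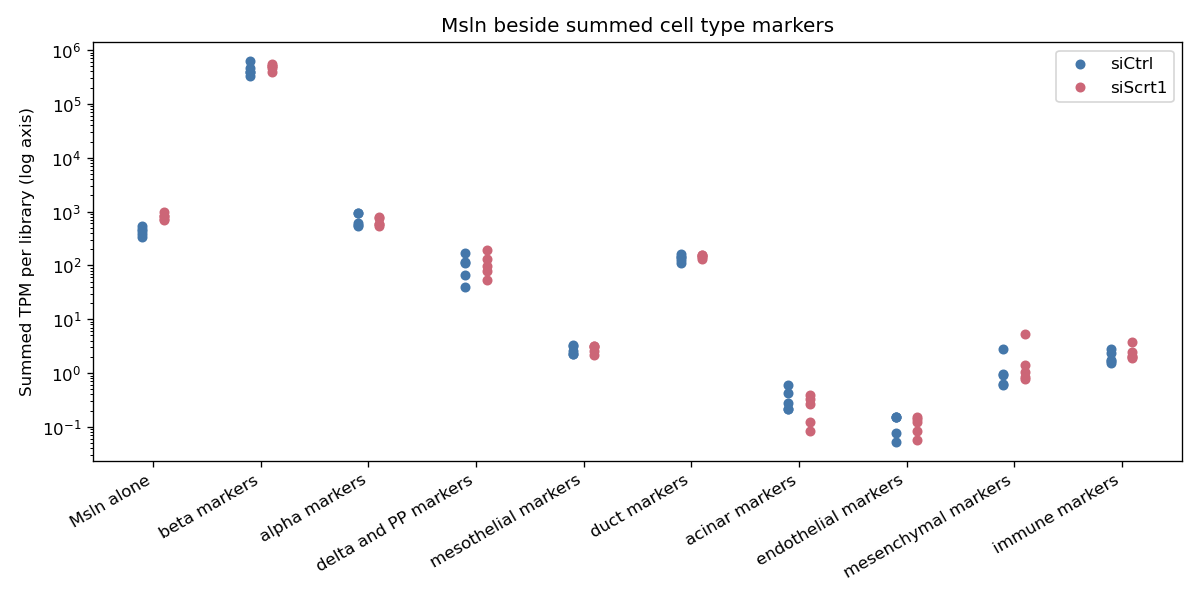
Msln and the summed TPM of each list of cell type markers in every library (y axis: TPM, log axis; blue: siCtrl, 5 libraries; red: siScrt1, 5 libraries). The Msln points lie more than 100 times above the mesothelial sum of 2.13 to 3.29 TPM and below the β-cell sum, and the marker lists overlap between the groups.

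Alpha cell markers, 5 of 5 in the table and led by Gcg, summed to 530 to 927 TPM in siCtrl and 538 to 808 TPM in siScrt1. Delta and PP cell markers, 4 of 4 and led by Sst, came to 40.0 to 167 and 53.9 to 193 TPM. The acinar (led by Cela1), endothelial (Cdh5), mesenchymal (Pdgfra) and immune (Cd74) lists summed to at most 0.609, 0.153, 5.26 and 3.70 TPM in any library, and of the immune list Cd3e was at 0 in every library. For each list the ranges of the groups overlapped, and the part of cell composition in the values of Msln was not tested. In RNA from a whole sorted fraction, fewer cells of a type and less RNA per cell cannot be told apart.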

How the data were processed

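RNA was sequenced as single-end reads of 10 libraries, 5 siCtrl and 5 siScrt1, grouped by the genotype label. Per the labels and the study's methods, the authors quantified them with kallisto against the Rnor6 transcriptome and used Sleuth, FastQC and Trimmomatic. The versions used for these libraries were not given in the sources used here. The deposited table holds, for 31715 transcripts, an estimated count and a TPM value (the signal used here), both already scaled between libraries by the authors, so that TPM do not sum to the same total. A further 9363 rows without values were left out. Columns of condition and number per library were used to name the libraries. Since 1 read was worth 0.842 to 1.26 scaled counts, division by this step gave the recovered reads, and CPM were computed from them. Over all transcripts 50.3% of values above 0 were whole reads within 0.01. As the deposited counts were already scaled between libraries, the main test used their logarithms and not a count model.

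Scaled counts were added up for each Ensembl gene, and log2(value + 0.5) was tested by limma 3.58.1 (intensity trend, group as the only term) in R 4.3.3. Genes were kept if 5 or more libraries reached a CPM equal to 10 reads at the median depth and the reads of all libraries came to 15, which left 12941 of 23918. Benjamini-Hochberg adjustment covered all of them, with a threshold of 0.05. Fold changes on this scale understate those of genes with few reads. The test was checked on simulated data. Fold changes and SE of Msln, Mslnl and Rpusd1, the members that passed the filter, were taken from this fit without p-values. Intervals of summed reads, rounded to whole reads, are exact and cover counting error only. Whether the replicates came from separate animals was not stated, so the p-values measure the spread between these libraries, which may be technical.

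Neighbours were the 20 protein-coding RefSeq genes (GRCr8) on each side, of which 39 of 40 matched the table by symbol, and the build differs from that of the reads. Named besides the 5 genes and Scrt1 were the 5 nearest tested neighbours on each side, list genes and neighbours past the threshold, the most abundant gene of each other list, and the 5 genes most like Msln and like Mslnl. A neighbour named by this rule is not reported here. A few further list genes (Mafa, Pdx1, Slc2a2, Nkx6-1, Furin, Otoa, Strc, Chtf8, Gnb1, Gnat3, Plcb2, Itpr3, Krt19, Wt1, Calb2 and Cd3e) and neighbours (Rhot2 and Rhbdl1) were added after their values were seen. The members and lists were chosen with earlier results of these data known.

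The libraries carry shared numbers only in the deposited table. Over 12941 genes, deviations from the group means of same-numbered libraries correlated at 0.132 to 0.356 and those of other pairs at -0.182 to 0.166, so the number was used as a replicate block in an alternative fit. The other alternatives were median-ratio, upper-quartile and TMM scaling of recovered reads, a pseudocount of 5, log2(TPM + 1) and log2(TPM + 0.1), limma-voom on recovered reads, no filter, and leaving out each library in turn.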

Additional observations from a re-analysis of the deposited data

Results flagged for a closer look

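A single library stood apart within its group. Gng13 was at 0.122 CPM and 0.733 TPM in siCtrl replicate 3, which held 2 reads, while it was at 0 in the other siCtrl libraries. The gap was the whole range of the group, a ratio of 1 against a critical value of 0.71 for 5 libraries. For values that follow a normal distribution such a gap arises by chance in about 1 of 20 groups. That rate does not hold here, since the ratio is 1 whenever all libraries but a single one are at 0. The 20 groups of 5 values examined were those of the 5 genes, each in CPM and in TPM.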

How the results depend on the processing

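The log2 fold changes of Msln, Mslnl and Rpusd1 kept their direction and side of the threshold in the 9 alternatives with all libraries, at 0.90, 1.01 to 1.16 and 0.59 to 0.65, and Scrt1 kept its fall. With the replicate block 259 genes were called in the whole table, against 136, of which 132 were shared, and 1 neighbour was called, against 0. The block changed no call among the members, the pathway lists or Scrt1. Calls with the block were not counted for the marker lists, and it was not run for single transcripts. Without 1 library the whole-table count was 62 to 133, the count of neighbours 0 to 2, that of the members 2 to 3 and that of the G protein list 0 to 1. Recovered reads scaled to library total and effective length are CPM per kb, a different unit from TPM. In this unit the mean of every member was a higher number in both groups. Msln was at 493 CPM per kb against 435 TPM in siCtrl and at 896 CPM per kb against 809 TPM in siScrt1. For Mslnl the values were 5.39 CPM per kb against 4.74 TPM and 11.7 CPM per kb against 10.6 TPM. For Rpusd1 they were 10.9 CPM per kb against 9.66 TPM and 16.6 CPM per kb against 14.95 TPM. Among the members, only for Rpusd1 in siScrt1 was this gap larger than the SD over libraries (1.03 TPM). As the units differ, no gap is read as a change in level. The median log2 fold change of all genes stayed within 0.1 of 0 under every scaling. In the fit of single transcripts, in which 17515 were tested and 22 (0.126%) called higher, Msln and Mslnl were called, whereas Rpusd1 was not. Rpusd1 had the same log2 fold change of 0.64 in both fits, with an SE of 0.122 by transcript and 0.118 by gene. Chtf18, which had enough reads for the fit by transcript, was at 0.35 (SE 0.44) and not called. The cause of the differences between calls was not tested. Depth limits Chtf18 and Gng13, which did not pass the filter on low counts, and no fold change is given for Gng13 beyond its counting interval.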
